A study of Drosophila melanogaster with 12 samples.

Results

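Male and female Drosophila melanogaster differ in the RNA of many genes, and the difference asked about here is the one that itself changed between 10 and 30 days of age. All 12 libraries of the study entered, and every gene counted at both ages was a candidate: 14760 genes stood in both tables and 14112 of them had enough counts to be tested. The flies were of the w1118 strain, which carries a white mutation and is a common laboratory background, and no group carried any other allele. They were mated before being separated by sex at 3 days, and were then kept on the sucrose and yeast medium SY10 with no further treatment. The 4 groups were 10-day females, 30-day females, 10-day males and 30-day males. Each group had 3 libraries, and each library was made from poly(A) RNA of 10 pooled whole flies.

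A library of a whole fly mixes all tissues. A female carries ovaries that hold a large share of her RNA and load eggs with maternal transcripts, while a male carries testes, accessory glands and relatively more head and muscle. Ageing is known to lower egg production in females and to raise innate immune transcripts in flies of both sexes. In whole flies, fewer cells of a type and less RNA per cell cannot be told apart, which holds for every result given here.

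The tested quantity was the log2 ratio of males over females at 30 days minus the same ratio at 10 days, called the interaction here. A positive value, described as toward males, means that the ratio of males to females was higher at 30 days, whether males gained or females lost. Levels are CPM, the count of a gene relative to all counts of its library, with library sizes scaled by TMM factors (the usual scaling on a trimmed mean of ratios), so they can be compared between libraries but not between genes of different length. Errors of fitted values are standard errors (SE), and each group had n = 3 libraries. Whether both ages were sequenced together is not given in the sources used here, so age and sequencing run cannot be told apart within a sex, while a shift common to both sexes drops out of the interaction.

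Total counts ran from 23095913 to 62923162 per library, and 30-day male replicate 2 was the smallest. Female libraries had counts for 10187 to 11337 genes and male libraries for 12991 to 14557. Libraries of 30-day females differed most among themselves, with a chi-square per gene of 174 to 364 between pairs. In the other groups such pairs had 65.3 to 138. The sex labels held in every library: the Y-linked gene kl-2 had 281, 394 and 309 counts in 10-day males, 159, 143 and 215 in 30-day males and 0 in all 6 female libraries, and lncRNA:roX1, an RNA of the male X chromosome, had 543 to 808 CPM in males against 0.278 to 6.29 in females. In females the oocyte RNA osk had 89.8 to 177 CPM. It had 44 counts in 10-day male replicate 3, 6 in 30-day male replicate 2 and 0 in the other male libraries. Both of these male libraries were left out together as an alternative. The flight muscle genes fln and TpnC4 had mean levels of at most 1.03 CPM in every group, although flight muscle is a large tissue of both sexes. How overlapping genes and near-identical copies were counted is not given in the sources used here.

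Few genes passed the strictest of the tests run, and many more passed the others. With the quasi-likelihood test of edgeR, 2 of 14112 genes (0.0142%) had an adjusted p below 0.05, 1 in each direction. At an unadjusted p below 0.05 there were 1838 genes, of which 959 (6.80% of those tested) lay toward males and 879 (6.23%) toward females. That split was 1293 and 635 with upper quartile factors, 792 and 1054 with total counts, and 611 and 940 when libraries were scaled to photoreceptor, neuron and muscle genes. The Wald test of DESeq2 called 541 genes (4.36%), 282 toward males (2.27% of the 12410 with an adjusted p) and 259 toward females (2.09%). With limma-voom 83 genes were called (0.588%), 55 toward males (0.390%) and 28 toward females (0.198%), and with library quality weights 164 (1.16%). DESeq2 also called 82 of these 83 and both genes of edgeR, while limma-voom called 1 of those 2. When only the 9361 genes with at least 10 counts in 2 libraries of every group were fitted, edgeR called 15 genes (0.160%), 6 toward males and 9 toward females. Scaling moved the edgeR count to between 1 and 3 genes. Single libraries moved it more, to 93 without 30-day female replicate 3, 66 without 30-day female replicate 1, and 0 without 10-day male replicate 1 or 30-day male replicate 1 or 3, where 1567 to 1660 genes had an unadjusted p below 0.05. Genes are therefore given with the adjusted p of each tool.

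**Figure D1:**
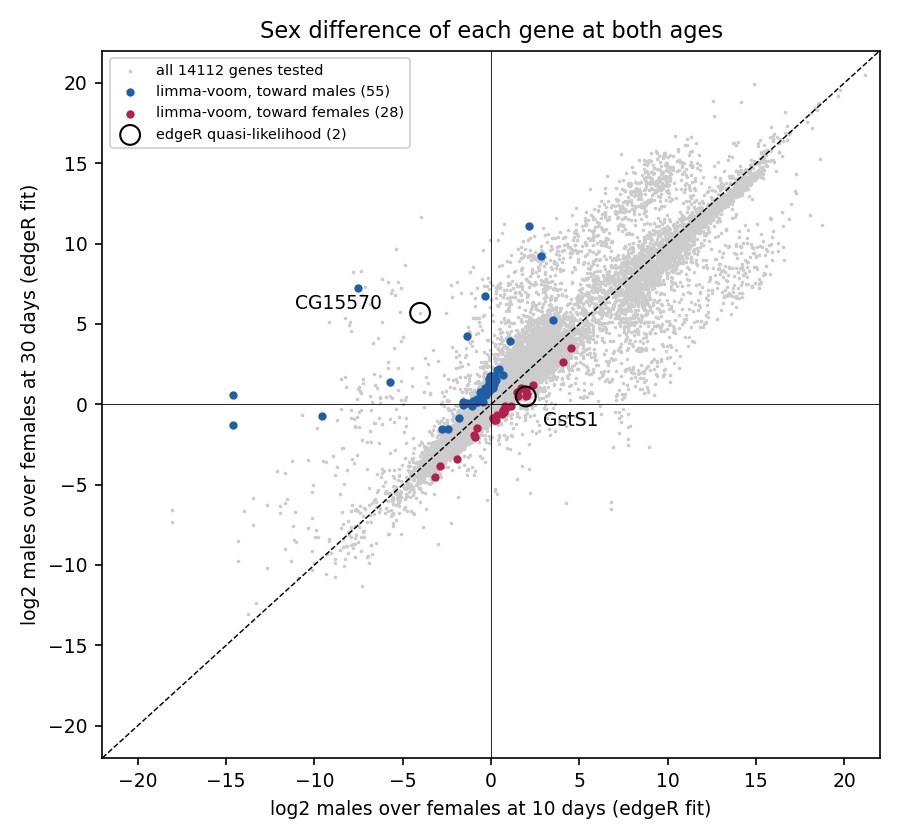
Each point is a gene, with the fitted log2 ratio of males over females at 10 days on the horizontal axis and at 30 days on the vertical axis; the dashed line marks equal ratios. Blue and red points are the 55 and 28 genes called by limma-voom, and rings mark CG15570 and GstS1, called by edgeR; CG15570 went from -4.02 to 5.69 and GstS1 from 1.97 to 0.49.

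A set of 73 genes passed DESeq2 and limma-voom with and without library quality weights, was measured in all 4 groups, and kept its direction at an unadjusted p below 0.05 in every edgeR fit without 1 library. This set was defined after values had been seen. It held 45 genes toward males and 28 toward females. In 27 of the 73 the fitted level was higher in females at 10 days and higher in males at 30 days. In 12 the order turned the other way. Of all 14112 genes tested, 540 and 350 did so. The male excess widened in 13 genes and narrowed in 10, beside 4682 and 3756 of all genes. The female excess widened in 6 and narrowed in 5, beside 2813 and 1971. The fitted age difference was larger in males for 43 of the genes and larger in females for 30, beside 7584 and 6528 of all genes. As the set was selected on the interaction itself, these counts describe it and are no further test.

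GstS1 encodes a sigma-class glutathione S-transferase that is abundant in muscle and conjugates products of lipid peroxidation. Its CPM were 125, 132 and 145 in 10-day females, 181, 218 and 196 in 30-day females, 522, 571 and 477 in 10-day males and 278, 285 and 270.4 in 30-day males. The libraries of no pair of groups overlapped, and at 30 days the male values were lower and the female values higher than at 10 days, so the male excess was smaller. The interaction was -1.48 ± 0.17 (SE), with an adjusted p of 0.0161 (edgeR), 0.00208 (limma-voom) and 8.14e-16 (DESeq2). The log2 ratio of males over females was 1.97 ± 0.12 at 10 days and 0.49 ± 0.12 at 30 days. When libraries were scaled to photoreceptor, neuron and muscle genes in place of all genes, the edgeR adjusted p was 0.159. It was 0.0516 and 0.0540 without 10-day female replicate 1 or 3, 0.0716 without 10-day male replicate 1, and 0.0899 and 0.0897 without 30-day male replicate 1 or 3.

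CG15570, a gene with no established function, went the other way. It had 3841, 1417 and 2932 counts in the 10-day female libraries and 0, 5 and 0 in the 30-day ones, against 72, 80 and 179 in 10-day males and 67, 37 and 61 in 30-day males. In CPM these were 57.1, 24.5 and 55.05, then 0, 0.0819 and 0, then 1.93, 2.23 and 4.26, and 1.81, 1.85 and 1.69. Young females thus had the highest level of the 4 groups and old females the lowest, with no overlap, while the male libraries of both ages lay between. The fitted interaction of 9.71 ± 1.02 (SE) rests on 5 counts in a single 30-day female library, so its size depends on how zeros are handled, and its adjusted p was 0.0119 (edgeR), 2.37e-19 (DESeq2) and 0.0543 (limma-voom). The edgeR adjusted p was 0.0716 without 10-day male replicate 1, and 0.0579 and 0.0534 without 30-day male replicate 1 or 3.

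Of the 37 gene lists examined, the cytoplasmic ribosomal proteins had the largest share of members toward males at an unadjusted p below 0.05. Cytoplasmic ribosomes are built from RNA and a fixed set of proteins of the large and small subunit, whose genes are transcribed in nearly every cell and strongly in growing cells and in the ovary. Of the 91 genes named RpL, RpS or RpLP, none passed the edgeR threshold. However, 80 of the 91 (87.9%) had an unadjusted p below 0.05 toward males, against 6.80% of all genes, and none toward females. DESeq2 called 56 of them and limma-voom 21, all toward males, against 2.27% and 0.390% of all genes. The interaction was positive in 89 of the 91, with a median of 1.08 beside 0.02 for all genes and the same median over the 85 members measured in all groups.

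The sexes started level and parted. The median log2 ratio of males over females across the list was -0.06 at 10 days and 1.03 at 30 days. Summed over the list, the level was 84682, 94869 and 78794 CPM in 10-day females and 69613, 41039.5 and 56426 in 30-day females. In males it was 78469, 67816 and 92713 CPM at 10 days and 94542, 130071 and 106450 at 30 days. Within each sex the ages did not overlap, narrowly so in males, and every 30-day male library lay above every 30-day female library while the sexes overlapped at 10 days. Gene by gene, 51 of the 91 were lower in every 30-day female library than in any 10-day one (8.61% of all genes were), and 49 were higher in every 30-day male library than in any 10-day one (9.86% of all genes were).

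RpLP0 is a protein of the ribosomal stalk. Its CPM were 1085, 1153 and 1117 in 10-day females, 535, 217 and 479 in 30-day females, 1349.5, 1238 and 1591 in 10-day males and 1675, 1885 and 1941 in 30-day males. Old females were lowest and their 3 libraries lay below all others, with replicate 2 the lowest of all. The interaction was 1.84 ± 0.37 (SE), with adjusted p of 0.0895 (edgeR), 0.0227 (limma-voom) and 0.000445 (DESeq2). RpS2, a protein of the small subunit near the mRNA entry, had 1710.4, 1777 and 1766 CPM in 10-day females and 925, 324 and 606 in 30-day females. In males its CPM were 1695, 1339 and 2045 at 10 days and 2013, 2227 and 2142 at 30 days, and the interaction was 1.83 ± 0.41 (SE). RpL13 had an interaction of 1.23 ± 0.23 (SE), RpLP1 of 1.66 ± 0.38 (SE), RpS20 of 1.67 ± 0.40 (SE), and RpS6, the substrate of the S6 kinase, of 0.96 ± 0.21 (SE). Each of these 5 was called by limma-voom (adjusted p of 0.0267, 0.0227, 0.0371, 0.0381 and 0.0301) and by DESeq2, and by edgeR none was (adjusted p of 0.0997 for RpS6 and 0.0814 for RpL13). Outside the list, sta, the protein SA of the small subunit, had 1.54 ± 0.38 (SE). Rack1, a scaffold on the small subunit, had 1.07 ± 0.26 (SE). Both were chosen after their values were seen, so their sign is no separate result.

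The members that went against the rest or stayed level were mostly paralogs with a restricted pattern. RpS19b, a paralog with higher levels in males, had 40.3, 39.8 and 46.6 CPM in 10-day males and 28.9, 29.5 and 26.98 in 30-day males, with at most 2.42 CPM in females, and its interaction was -1.09 ± 0.85 (SE) (edgeR adjusted p = 0.647). RpS5b, the ovarian paralog of RpS5a, had 632, 707 and 628 CPM in 10-day females and 446, 301 and 351 in 30-day females, with 22.4, 24.2 and 41.7 and then 19.2, 25.6 and 14.1 in males, and an interaction of 0.25 ± 0.37 (SE) (edgeR adjusted p = 0.914). It was thus lower in the old libraries of females, as other members were, and not higher in those of males. RpL10Aa, the other member with a negative fitted value, was at 0 in all female libraries, so no change of its sex ratio could be measured. RpS3A, a strongly counted member of the small subunit, was no exception and had a positive value of 0.74 ± 0.22 (SE).

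The count of cytoplasmic ribosomal proteins toward males stayed between 72 and 82 in all alternatives run. Without 30-day female replicate 2, the lowest library, 77 of the 91 had an unadjusted p below 0.05 toward males and the median was 1.03. Without 30-day male replicate 2, the highest library, these were 73 and 0.93, and without 30-day female replicate 1, 81 and 1.35. Traces of egg RNA were present in 30-day male replicate 2 and also in 10-day male replicate 3. With the scaling to photoreceptor, neuron and muscle genes, which lowers the interaction of all genes by 0.22 at the median, 75 of the 91 remained below 0.05 and the list median was 0.88. Upper quartile factors, which raise the median of all genes by 0.14, gave a list median of 1.21. The summed level of the maternal germline RNAs, which follow the ovary, was 12414, 11739 and 12173 CPM in 10-day females and 11328, 13353 and 11644 in 30-day females and overlapped between ages, while that of the chorion genes of late egg chambers was 2208, 1479 and 2836 and 163, 108 and 2.53 CPM and did not. The part of egg chamber content in the female ribosomal protein levels was not tested.

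**Figure D2:**
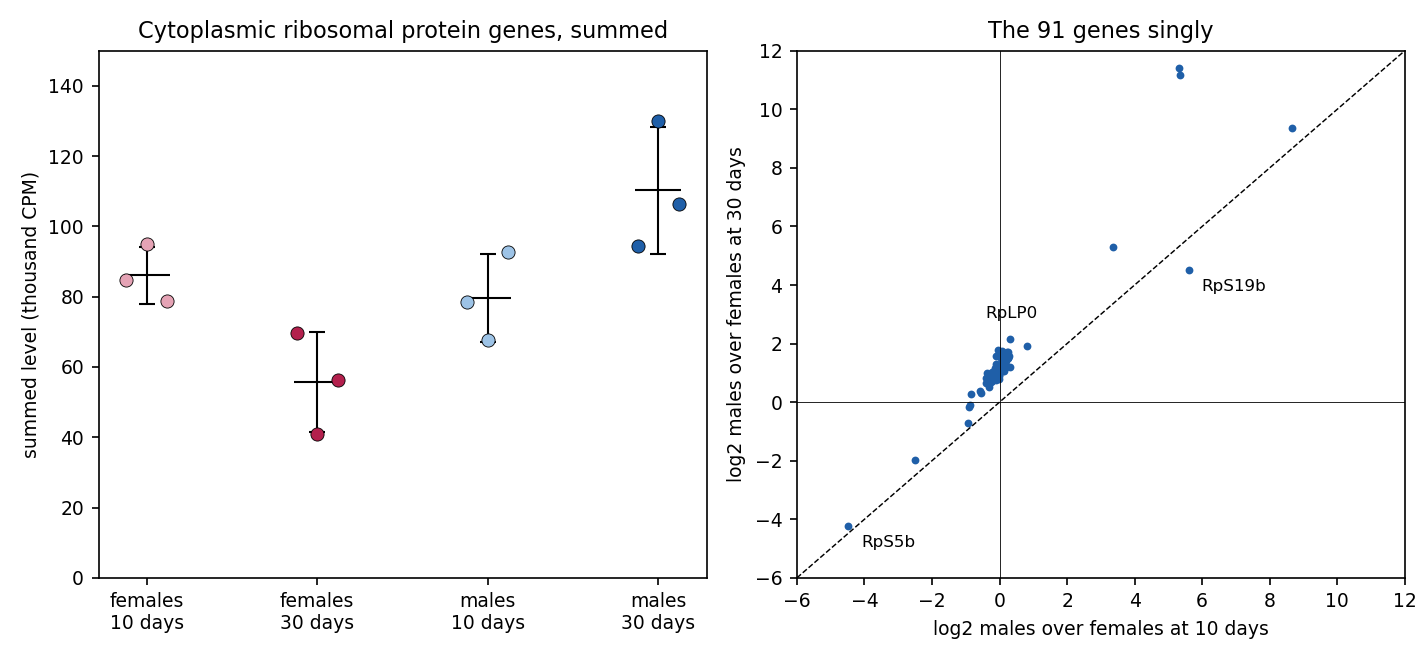
Left, summed CPM of the 91 cytoplasmic ribosomal protein genes in each library (points) with the group mean and SD (bars), n = 3 per group; 30-day females sit between 41039.5 and 69613 CPM and 30-day males between 94542 and 130071 CPM. Right, log2 ratio of males over females at 10 days against 30 days for each gene; 89 of the 91 points lie above the dashed line of equal ratios.

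Some other genes of the translation apparatus and its supply had values in the same direction, in lists chosen after values had been seen. Elongation factors deliver aminoacyl-tRNA to the ribosome and move it along the mRNA. Of 7 elongation factor genes, limma-voom called 2 and DESeq2 3, beside 0.390% and 2.27% of all genes. At an unadjusted p below 0.05, 5 lay toward males (6.80% of all genes did), and the median interaction of the list was 0.84. With the scaling to photoreceptor, neuron and muscle genes 3 translation elongation factors passed that level, with a median of 0.63. eEF1alpha1, the main form, had 9952, 11516 and 9521 CPM in 10-day females and 6799, 4485 and 8088 in 30-day females. In males it had 6748, 6581 and 7763 at 10 days and 8778, 9648 and 9629 at 30 days, and the interaction was 1.09 ± 0.25 (SE) (limma-voom adjusted p = 0.0386). eEF1gamma, a subunit of its exchange factor, had an interaction of 0.93 ± 0.17 (SE) (limma-voom adjusted p = 0.0216). eEF1alpha2, the paralog of neurons and muscle, had -0.35 ± 0.30 (SE) and passed in no tool. Hsc70-4, the constitutive cytosolic chaperone, had 4221, 3651 and 3978 CPM in 10-day females and 2301, 2310.1 and 2992 in 30-day females, then 2223, 2284 and 2406 in 10-day males and 2899, 2841 and 3692 in 30-day males. Its levels were lower in old than in young females and higher in old than in young males, with no overlap within a sex, and the interaction was 1.09 ± 0.20 (SE) (adjusted p = 0.0814 with edgeR and 0.0216 with limma-voom). The list of 26 heat shock genes that holds Hsc70-4 had a median of 0.02. At an unadjusted p below 0.05, 1 member lay toward males and 2 toward females, beside 6.80% and 6.23% of all genes. CCT5, a subunit of the cytosolic chaperonin chosen after its value was seen, had an interaction of 1.19 ± 0.25 (SE) (limma-voom adjusted p = 0.0381).

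The enzymes that build purine nucleotides from ribose phosphate were in most cases higher in old than in young males. The pathway starts with phosphoribosyl pyrophosphate, made by Prps, runs through Prat or Prat2, Gart, Pfas, Paics, Adsl and the bifunctional last enzyme encoded by CG11089 to inosine monophosphate, and then branches through Adss to AMP and through ras and bur to GMP. Of the 11 genes, 6 had an unadjusted p below 0.05 toward males (6.80% of all genes did) and none toward females. DESeq2 called the same number and limma-voom 4, beside 2.27% and 0.390% of all genes. The median interaction was 0.95. In 7 of the 11 every 30-day male library lay above every 10-day male library, as for 9.86% of all genes. The count for de novo purine synthesis was 6 to 8 without single libraries, and 4 with the scaling to photoreceptor, neuron and muscle genes.

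CG11089 had 75.2, 57.4 and 71.6 CPM in 10-day females, 58.2, 53.4 and 72.3 in 30-day females, 20.1, 22.7 and 25.7 in 10-day males and 56.2, 57.5 and 67.5 in 30-day males. The male values at 30 days reached the range of the females, and the interaction was 1.56 ± 0.25 (SE) (adjusted p = 0.0814 with edgeR, 0.0233 with limma-voom and 1.65e-05 with DESeq2). Pfas had 50.1, 47.3 and 47.7 CPM in 10-day males and 103, 90.4 and 139 in 30-day males, with 126, 119 and 124 and then 89.1, 100.5 and 122 in females, and an interaction of 1.44 ± 0.24 (SE). Paics was level between the sexes at 10 days, with 124, 134 and 122 CPM in females and 115, 135 and 126 in males, and separate at 30 days, with 108, 72.2 and 98.7 and 208, 239 and 333. Its interaction was 1.50 ± 0.27 (SE), and that of Prps was 0.95 ± 0.18 (SE). These 4 genes passed limma-voom and DESeq2, with edgeR adjusted p of 0.0814 each. Gart (1.15 ± 0.27 (SE)) and Adsl (1.13 ± 0.26 (SE)) passed DESeq2 only, with limma-voom adjusted p of 0.0575 each. The enzymes after the branch point gave 0.34 ± 0.16 (SE) for Adss, -0.11 ± 0.17 (SE) for ras and -0.38 ± 0.19 (SE) for bur, and the paralogs of the first committed step gave -0.39 ± 0.46 (SE) for Prat and 0.55 ± 0.50 (SE) for Prat2. None of these 5 passed in any tool, and all were measured in every library.

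**Figure D3:**
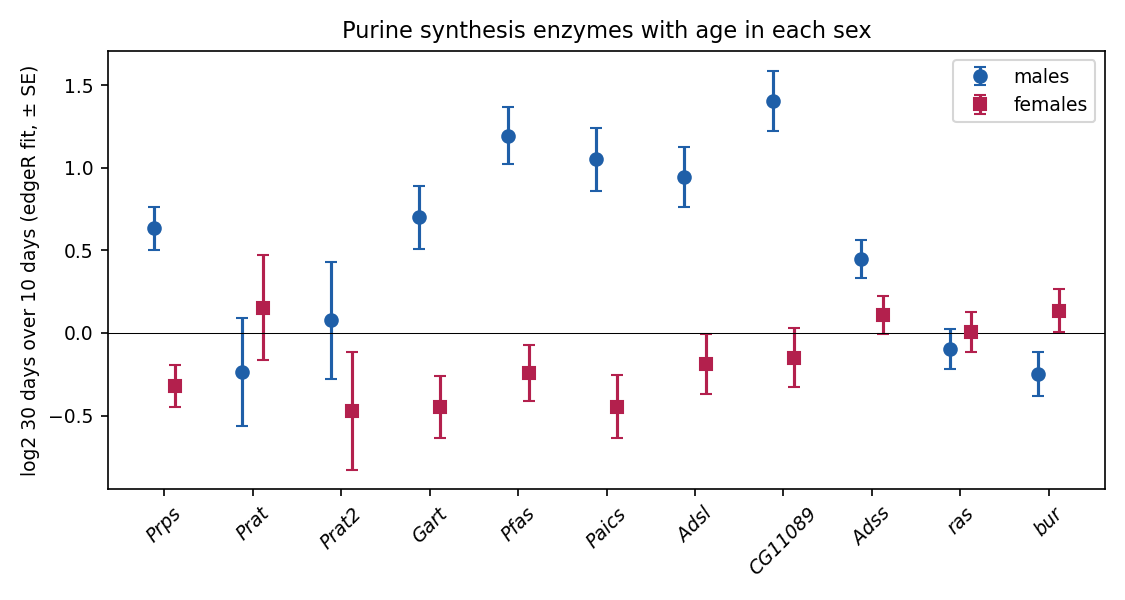
Fitted log2 difference between 30 and 10 days (vertical axis, edgeR, ± SE) in males (circles) and females (squares) for the 11 purine synthesis genes, in pathway order. From Gart to CG11089 the male values lie between 0.70 and 1.41 and the female values between -0.45 and -0.15, while for Prat, ras and bur the male value lies below the female value.

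One-carbon units for purines come from folate. Of 9 folate and one-carbon genes, a list chosen after values had been seen, 3 had an unadjusted p below 0.05 toward males (6.80% of all genes did). None did toward females, and DESeq2 called 3, beside 2.27% of all genes. pug, the cytosolic enzyme that makes formyl-tetrahydrofolate, had 40.2, 69.2 and 57.1 CPM in 10-day males and 169, 213 and 151 in 30-day males, while females had 33.7, 43.9 and 42.6 and then 35.2, 32.8 and 50.3. Its interaction was 1.70 ± 0.33 (SE) (limma-voom adjusted p = 0.0267). Shmt, which takes the carbon from serine, had 178, 157 and 190.4 CPM in 10-day females and 102, 113 and 115 in 30-day females. Its male values were 158, 97.4 and 80.3 and then 151, 201 and 199 CPM, overlapping between ages, and the interaction was 1.39 ± 0.31 (SE) (limma-voom adjusted p = 0.0371). Nmdmc, a mitochondrial folate dehydrogenase, had 1.61 ± 0.45 (SE) and passed DESeq2 only (adjusted p = 0.0427, with 0.0543 by limma-voom).

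Single enzymes of carbon metabolism were found in both directions. Taldo, the transaldolase of the pentose phosphate pathway that returns ribose carbon to glycolysis, had 149, 162 and 146 CPM in 10-day males and 248, 264 and 263 in 30-day males, against 203, 219.7 and 177 and then 181, 167 and 169 in females. Females were above males at 10 days and below them at 30 days, without overlap, and the interaction was 0.98 ± 0.16 (SE) (limma-voom adjusted p = 0.0216). Mdh1, a malate dehydrogenase, gave 1.05 ± 0.18 (SE), and Got2, an aspartate aminotransferase, gave 0.92 ± 0.20 (SE), with limma-voom adjusted p of 0.0216 and 0.0381. blw, the alpha subunit of ATP synthase, had 1668, 1559 and 1654 CPM in 10-day females and 1069, 1087 and 1098 in 30-day females, and its males stayed between 1147 and 1251 CPM at both ages. Its interaction was 0.65 ± 0.13 (SE) (limma-voom adjusted p = 0.0227). Over 86 nuclear genes of oxidative phosphorylation, 16 had an unadjusted p below 0.05 toward males and 2 toward females, beside 6.80% and 6.23% of all genes. The median of these 86 was 0.32, and over 24 mitochondrially encoded RNAs none passed that level. In 21 glycolysis genes 5 lay toward males at that level, again beside 6.80% of all genes, and none toward females. Values were 0.41 ± 0.13 (SE) for Eno, the enolase, and 0.57 ± 0.17 (SE) for Pglym78, a phosphoglycerate mutase, among others. These counts were unstable. With the scaling to photoreceptor, neuron and muscle genes oxidative phosphorylation and glycolysis and sugar metabolism each had 0 genes toward males, and without 30-day female replicate 1 oxidative phosphorylation had 42 and mitochondrially encoded RNAs 10.

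Toward females, Gpdh3, a glycerol-3-phosphate dehydrogenase with high male levels, had 413, 439 and 404 CPM in 10-day males and 214, 241 and 181 in 30-day males, while females had 25.4, 19.8 and 29.5 and then 29.4, 37.7 and 37.6. The male excess remained at 30 days but was smaller, with an interaction of -1.47 ± 0.24 (SE) (adjusted p = 0.0814 with edgeR and 0.0216 with limma-voom). Pgm2a, a phosphoglucomutase, gave -0.92 ± 0.18 (SE) (limma-voom adjusted p = 0.0267). Jabba, which holds histones on the lipid droplets of eggs, had 1023, 1186 and 958 CPM in 10-day females and 1359, 1438 and 1179 in 30-day females, then 107, 116 and 133 in 10-day males and 64.7, 66.9 and 40.04 in 30-day males. Its interaction was -1.38 ± 0.27 (SE) (limma-voom adjusted p = 0.0227). Of 24 lipid genes 12 had a positive interaction, 1 lay toward males and 2 (8.33%, beside 6.23% of all genes) toward females at an unadjusted p below 0.05. Those toward females passed DESeq2 and were Lsd-1, the perilipin of the lipid droplet surface, with 151, 143 and 184 CPM in 10-day males, 60.03, 39.04 and 70.3 in 30-day males and an interaction of -1.02 ± 0.28 (SE), and whd, the carnitine palmitoyltransferase that admits fatty acids to mitochondria, with -0.70 ± 0.18 (SE).

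Some genes of the germline were found toward females. exu, an RNA-binding protein used in oocytes and in the male germline, had 741, 831 and 727 CPM in 10-day males and 399, 454 and 323 in 30-day males, against 534, 510.2 and 467 and then 591, 664 and 526 in females. Males were above females at 10 days and below them at 30 days with no overlap, and the interaction was -1.21 ± 0.21 (SE) (adjusted p = 0.0814 with edgeR, 0.0216 with limma-voom and 6.38e-06 with DESeq2). Across 20 maternal germline RNAs, 4 had an unadjusted p below 0.05 toward females against 6.23% of all genes, none toward males, and 16 had a negative interaction, with a median of -0.57, and of -0.47 over the 16 measured in all groups. Besides exu these were aub (-0.80 ± 0.25 (SE)) and piwi (-1.12 ± 0.46 (SE)) of the piRNA pathway, which silences transposons in germ cells, and CycB (-0.63 ± 0.24 (SE)), a mitotic cyclin. In 7 of the 20 every 30-day male library was below every 10-day male library (15.5% of all genes were). The count of maternal germline RNAs toward females at an unadjusted p below 0.05 was 8 without 30-day male replicate 2, but 1 without 10-day female replicate 3 or 30-day female replicate 2.

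Among single genes called toward females, chosen after their values were seen, were polo, vih, endos and Klp67A of cell division. polo, a kinase of cell division, had 81.9, 93.6 and 95.9 CPM in 10-day males and 50.04, 64.3 and 46.5 in 30-day males, with 660.5, 688 and 668 and then 734, 825 and 715 in females, and an interaction of -0.93 ± 0.20 (SE) (limma-voom adjusted p = 0.0301). vih, a ubiquitin-conjugating enzyme of cyclin destruction, gave -0.93 ± 0.19 (SE), endos, an inhibitor of the phosphatase PP2A in meiosis, gave -0.66 ± 0.15 (SE), and Klp67A, a spindle kinesin, gave -1.44 ± 0.41 (SE), each called by limma-voom and DESeq2. f-cup, a gene transcribed late in spermatid development, had 156, 192 and 171 CPM in 10-day males and 99.5, 96.8 and 92.5 in 30-day males, with an interaction of -1.18 ± 0.20 (SE) (limma-voom adjusted p = 0.0267). Tom70, a mitochondrial import receptor, had 188, 215 and 216 and then 108, 160.1 and 96.6 CPM in males, and its interaction was -1.42 ± 0.26 (SE). f-cup and Tom70 were lower in every old male library than in any young one, while their females had 28.7, 37.9 and 32.2 and 51.99, 50.1 and 47.3 CPM at 10 days and 45.9, 39.1 and 39.5 and 71.5, 91.7 and 72.2 at 30 days. Among 40 sperm and testis genes, 3 (7.5%, beside 6.23% of all genes) lay toward females at an unadjusted p below 0.05 and none toward males (10 toward females without 10-day female replicate 2, and 9 toward males without 10-day female replicate 1), and 15 were lower in every 30-day male library than in any 10-day one (15.5% of all genes were). Their summed level was 8298, 8232 and 9049 CPM in 10-day males and 5544, 11222 and 4637 in 30-day males, so 30-day male replicate 2 stood apart from the other old males. The part of testis content in the male levels of the genes above was not tested.

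**Figure D4:**
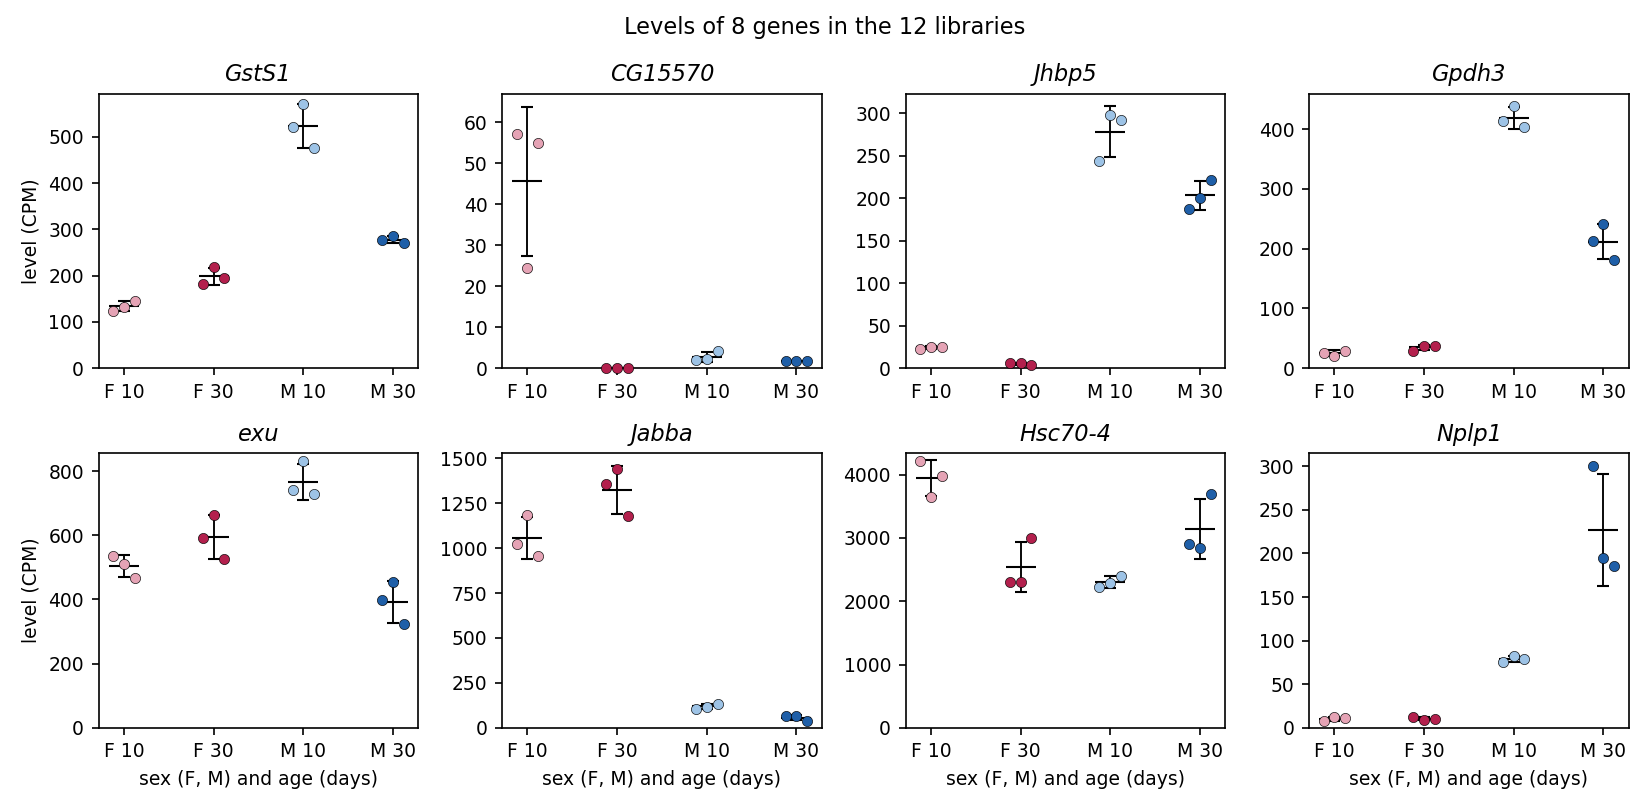
CPM of 8 genes in each of the 12 libraries (points) with the group mean and SD (bars), n = 3 per group, for females (F) and males (M) at 10 and 30 days; each panel has its own vertical axis from 0. GstS1, Gpdh3, exu and Jabba are lower in old than in young males, CG15570 and Jhbp5 are lower in old than in young females, and Nplp1 is higher in old than in young males.

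Eggshell genes were lower in old females. The chorion and the vitelline membrane are layers of the eggshell, secreted by follicle cells late in egg development. Of 9 chorion genes, 7 were lower in every 30-day female library than in any 10-day one (8.61% of all genes were). Of 13 vitelline membrane and early eggshell genes, 12 were. Summed, the latter had 2950.2, 2293 and 2631 CPM in 10-day females and 904, 581 and 437 in 30-day females. In males the sums were 3.98, 2.78 and 50.7 at 10 days and 0.460, 6.41 and 1.36 at 30 days. An interaction on a ratio whose male side is near 0 has a large error. Toward males, 2 of the 9 and 3 of the 13 had an unadjusted p below 0.05, beside 6.80% of all genes, and none did toward females. For the chorion proteins this count was 7 without 30-day female replicate 2, and for vitelline membrane and early eggshell genes 0 without 30-day male replicate 2. Cp7Fb, a chorion protein, had 124, 83.5 and 86.8 CPM in 10-day females and 0.403, 3.28 and 0 in 30-day females, and yellow-g2, needed for a rigid eggshell, had 78.9, 57.8 and 70.4 and then 0, 0.229 and 0. For yellow-g2, limma-voom gave an adjusted p of 0.0267 and DESeq2 0.0391, with male counts of 0 in 5 of 6 libraries. Yp3, a yolk protein made by fat body and follicle cells, had 859.9, 1221 and 970.4 CPM in 10-day females and 381, 156 and 277 in 30-day females, with 15.5, 13.7 and 26.05 and then 11.2, 23.4 and 14.1 in males, and an interaction of 1.72 ± 0.51 (SE) (DESeq2 adjusted p = 0.0296, limma-voom 0.305).

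Single secreted protein genes also lay toward males. Obp19c, a member of the odorant-binding protein family, had 39.97, 32.8 and 35.5 CPM in 10-day females and 0.784, 0.426 and 0.205 in 30-day females, against 0, 0.306 and 1.69 and 1.11, 1.40 and 1.25 in males. Its interaction was 7.15 ± 1.44 (SE), with adjusted p of 0.092 (edgeR), 0.0267 (limma-voom) and 5.07e-05 (DESeq2). Jhbp5, a predicted juvenile hormone binding protein, had 22.6, 25.5 and 25.2 CPM in 10-day females and 6.25, 5.70 and 3.92 in 30-day females. Males had 244, 298 and 293 at 10 days and 188, 201 and 222 at 30 days, so both sexes were lower when old and females by more. The interaction was 1.76 ± 0.24 (SE), with adjusted p of 0.0536 (edgeR), 0.0371 (limma-voom) and 1.38e-08 (DESeq2). Obp99b, of the same family as Obp19c and made in the male fat body, had 22.3, 29.6 and 28.6 CPM in 10-day males and 69.7, 143 and 79.3 in 30-day males. In females it had at most 2.05 CPM, and its adjusted p was 0.0814 (edgeR), 9.73e-06 (DESeq2) and 0.185 (limma-voom). Lsp2, a storage protein of the larva, was at 0 in all 3 libraries of 30-day females and at 7.12, 14.2 and 5.66 CPM in 30-day males, with young males at 0, 0.306 and 0 CPM and young females at 0, 4.89 and 0, and was called by DESeq2 (adjusted p = 3.48e-05) and not by limma-voom (0.122).

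Nervous system and eye genes were examined in 3 lists. Of 22 neuronal genes, 11 had an unadjusted p below 0.05 toward males (6.80% of all genes did) and none toward females, and 21 had a positive interaction, with a median of 0.96. DESeq2 called 4 of them and limma-voom none, beside 2.27% and 0.390% of all genes. In 12 of the 22 every 30-day female library was below every 10-day one, as for 8.61% of all genes. brp, a scaffold of synaptic active zones, had 12.9, 11.3 and 13.3 CPM in 10-day females and 3.47, 3.64 and 6.12 in 30-day females, with 132, 126 and 118 and then 125, 85.04 and 97.00 in males. The interaction of brp was 1.21 ± 0.32 (SE) (DESeq2 adjusted p = 0.0238, limma-voom 0.169), and that of Gad1, which makes the transmitter GABA, was 1.74 ± 0.40 (SE) (DESeq2 0.00555, limma-voom 0.15). The summed level of the neuronal genes was 549, 503 and 525 CPM in 10-day females and 416, 370.1 and 451 in 30-day females, and 2279.7, 2444 and 2199.6 and then 2996, 1799.6 and 2326 in males. With the scaling to photoreceptor, neuron and muscle genes 6 of the 22 had an unadjusted p below 0.05 and the median was 0.74. The neuronal genes themselves help to set that scale, so it is no independent check of this list. Without 30-day male replicate 1, the highest male library, 7 of the 22 had an unadjusted p below 0.05.

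Many neuropeptide precursors were higher in old than in young males. Of 27 precursors 9 had an unadjusted p below 0.05 toward males (6.80% of all genes did) and none toward females, with a median of 0.88, and 15 were higher in every 30-day male library than in any 10-day one (9.86% of all genes were). DESeq2 called 7 of the 27 and limma-voom none, beside 2.27% and 0.390% of all genes. Nplp1, a neuropeptide-like precursor, had 74.97, 82.3 and 79.4 CPM in 10-day males and 301, 195 and 186 in 30-day males, and 7.75, 12.4 and 11.4 and then 12.4, 8.52 and 10.5 in females. The interaction was 1.53 ± 0.32 (SE) (adjusted p = 0.0986 with edgeR, 0.00327 with DESeq2 and 0.116 with limma-voom). NPF, the fly counterpart of mammalian neuropeptide Y, had 12.4, 14.6 and 14.1 CPM in 10-day males and 32.4, 25.8 and 35.1 in 30-day males, and 2.28, 2.32 and 1.61 and then 1.19, 0.786 and 1.43 in females, with an interaction of 2.05 ± 0.43 (SE) (DESeq2 adjusted p = 0.000874). Ilp2, an insulin-like peptide of the brain, had 55.7, 47.7 and 46.8 CPM in 10-day males and 77.5, 62.8 and 66.1 in 30-day males, and 5.80, 8.98 and 5.09 and then 2.33, 1.08 and 2.89 in females, with an interaction of 2.12 ± 0.46 (SE) (DESeq2 0.00314, limma-voom 0.0817). G6P, the glucose-6-phosphatase, had 23.6, 20.6 and 28.2 CPM in 10-day males and 18.4, 18.8 and 17.4 in 30-day males, with at most 1.07 CPM in females, where 2 of the 3 old libraries were at 0 (DESeq2 adjusted p = 0.00564, limma-voom 0.144). Of 27 phototransduction genes, 8 lay toward males at an unadjusted p below 0.05 and 1 toward females, beside 6.80% and 6.23% of all genes. Neither DESeq2 nor limma-voom called any. The count of phototransduction genes toward males ran from 2 without 10-day female replicate 2 to 14 without 30-day female replicate 3. The 3 with the lowest p were Ggamma30A (1.29 ± 0.42 (SE)), a G protein subunit of photoreceptors, and the rhodopsins Rh3 (1.75 ± 0.59 (SE)) and Rh4 (1.58 ± 0.59 (SE)) of ultraviolet-sensitive cells.

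Immune genes were examined by class. Bomanins, Daisho and Baramicin peptides are short secreted peptides made in the fat body under the Toll pathway. Of 18 such genes 17 had a positive interaction, with a median of 1.83 (1.68 over the 13 measured in all groups). At an unadjusted p below 0.05, 5 lay toward males and 1 toward females, beside 6.80% and 6.23% of all genes. Their summed level was 67.9, 66.04 and 74.9 CPM in 10-day males and 258, 369 and 135 in 30-day males, and 16.6, 28.7 and 14.6 and then 33.6, 8.96 and 20.03 in females. Old males lay above all other libraries, and the females of both ages overlapped. BaraA1 had 1.10, 1.84 and 2.52 CPM in 10-day males and 33.5, 27.96 and 12.3 in 30-day males, with at most 3.02 CPM in females, and an interaction of 3.83 ± 1.14 (SE) (DESeq2 adjusted p = 0.0307, limma-voom 0.17). BomT1 was at 0 in all 3 libraries of 10-day males and at 7.69, 3.61 and 2.27 CPM in 30-day males.

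Most antimicrobial peptides were higher in old than in young males. In 12 of 17 every 30-day male library lay above every 10-day one, and in 4 of 17 this held in females (9.86% and 5.12% of all genes). The median fitted log2 difference between 30 and 10 days was nonetheless close in the sexes, at 2.44 in males and 2.31 in females. The summed level was 118, 109 and 118 CPM in 10-day males and 493, 554 and 511 in 30-day males, and 246, 188 and 228 and then 411, 159.8 and 278 in females. Drs alone held 239.6, 181 and 222 CPM of the 10-day female sums. Across the list, the median log2 ratio of males over females at 10 days was 2.94, so most members were not higher in young females. Only 1 of the 17 had an unadjusted p below 0.05 toward males and 2 toward females, beside 6.80% and 6.23% of all genes. The median interaction of the antimicrobial peptides was -0.65, but 1.21 over the 5 measured in all groups and 1.27 over all 17 without 30-day female replicate 3, so its sign is not settled. With limma-voom 5 of the 17 lay toward males and 1 toward females at an unadjusted p below 0.05. Drs, the antifungal drosomycin, had 30.4, 29.2 and 29.04 CPM in 10-day males and 89.4, 182 and 63.6 in 30-day males, against 239.6, 181 and 222 and then 392, 150.5 and 135 in females. The sexes did not overlap at 10 days and overlapped at 30 days, and the interaction was 1.84 ± 0.60 (SE) (adjusted p = 0.235 with edgeR and 0.0549 with DESeq2). DptA, a diptericin, was at 0 in all young females and at 0.694, 0.491 and 37.3 CPM in old ones, with 30-day female replicate 3 far above the others, and 3.64, 1.59 and 2.31 and then 38.2, 32.1 and 69.96 in males. Its DESeq2 adjusted p was 0.00828 toward females, with 0.639 by limma-voom. CecC, a cecropin, was likewise at 0 in all young females, with 0, 0.328 and 1.21 CPM in old females, 2.06, 1.50 and 3.02 in young males and 9.23, 12.7 and 13.8 in old males, and passed in no tool.

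Of the other immune genes the study discusses, Rel, AttD, Mtk, Drsl3 and Drsl4 were fitted here and none was called by a tool that gave an adjusted p. Rel, the NF-kappaB factor of the Imd pathway, had 171, 171 and 166 CPM in 10-day males and 311, 209.9 and 270.3 in 30-day males, and 90.1, 115 and 91.98 and then 111, 92.1 and 112 in females, with an interaction of 0.55 ± 0.23 (SE) (adjusted p = 0.331 with edgeR, 0.268 with limma-voom and 0.27 with DESeq2). Old males were above young males in every library, and the test of the difference between the sexes still missed the threshold. AttD, an attacin, had at most 0.637 CPM in females and 10-day males and 4.95, 2.20 and 5.80 CPM in 30-day males, with an interaction of 3.39 ± 2.14 (SE) (edgeR adjusted p = 0.538). Mtk, Drsl4 and Drsl3 stayed below 5 CPM in all libraries, with groups at or near 0, and their fitted interactions of -0.92 ± 2.00 (SE), -0.65 ± 0.96 (SE) and 0.25 ± 3.36 (SE) changed sign with the tool or the libraries used. CecB stood in the table of 30 days alone and was not analysed here. PGRP-LA, a peptidoglycan recognition protein of epithelia, had 10.2, 11.3 and 6.70 CPM in 10-day females and 1.79, 2.87 and 4.17 in 30-day females, with 48.5, 42.4 and 46.5 and then 58.3, 52.2 and 55.1 in males, and an interaction of 1.94 ± 0.41 (SE) (adjusted p = 0.0986 with edgeR, 0.0633 with limma-voom and 0.00156 with DESeq2). Across the 42 genes of immune recognition and signalling 4 (9.52%, beside 6.80% of all genes) had an unadjusted p below 0.05 toward males and none toward females, and 12 toward males without 30-day female replicate 3.

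Hsp23, a small heat shock protein, was the heat shock gene with the largest negative value. Its CPM were 3.38, 4.13 and 2.82 in 10-day females, 12.8, 28.8 and 69.98 in 30-day females, 42.6, 51.96 and 30.7 in 10-day males and 31.4, 35.2 and 44.9 in 30-day males. Young females were lowest and old females reached the male range, with a wide spread among the 3 old female libraries. The interaction was -3.60 ± 0.69 (SE), with adjusted p of 0.0814 (edgeR), 9.01e-05 (DESeq2) and 0.13 (limma-voom). Of 26 heat shock genes 1 (3.85%) lay toward males and 2 (7.69%) toward females at an unadjusted p below 0.05, with a median of 0.02. Of all genes tested, 6.80% and 6.23% did. Fer1HCH, the heavy chain of secreted ferritin, had an interaction of 0.59 ± 0.15 (SE) (DESeq2 adjusted p = 0.00424, limma-voom 0.0543). It was the single metal handling gene of 18 (5.56%) with an unadjusted p below 0.05, beside 6.80% of all genes toward males.

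Small lists with a larger share toward males than the 6.80% of all genes at an unadjusted p below 0.05 were the fat body and sex-biased secreted proteins with 5 of 14 (35.7%), among them Obp99b and Lsp2, the spermathecal genes with 2 of 6 (33.3%) and the circadian clock genes with 3 of 11 (27.3%), and toward females these had 0, 0 and 1. The count for the fat body and sex-biased secreted proteins was 3 without 10-day female replicate 2, 10-day male replicate 2 or 30-day male replicate 1, and that for the circadian clock was 1 without 10-day male replicate 1 or 2 or 30-day male replicate 1 or 2. Of 34 glutathione S-transferases 4 lay toward males and 2, with GstS1, toward females, of 38 odorant-binding proteins 3 and 1, of 21 insulin signalling genes 2 and 1, of 13 Turandot and JAK-STAT genes 1 and none, of 4 yolk genes 1 and none, and of 5 long noncoding RNAs none. Of 54 seminal fluid proteins, 1 lay toward males and 2 toward females at an unadjusted p below 0.05. Of 80 chemoreceptors 1 lay in each direction, of 27 sarcomere genes none toward males and 1 toward females, and of 63 cuticle protein genes 3 and 2. Of 80 cytochrome P450 enzymes 7 lay toward males and 2 toward females, of 48 digestive enzymes 4 and 1, and of 16 antioxidant genes 1 and none. Toward males, 6.80% of all genes lay at that level, and toward females 6.23%. Single libraries moved these small counts too: without 30-day female replicate 3 there were 15 cytochrome P450 enzymes, 8 digestive enzymes and 8 cuticle proteins toward males, without 30-day female replicate 1 there were 9 sarcomere genes and 8 odorant-binding proteins, without 10-day female replicate 1 there were 5 seminal fluid proteins, and without 10-day female replicate 3 there were 5 antioxidant genes. The 10 Y-linked fertility genes were at or below a mean of 0.294 CPM in females, so for them no change of the sex ratio could be measured.

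**Figure D5:**
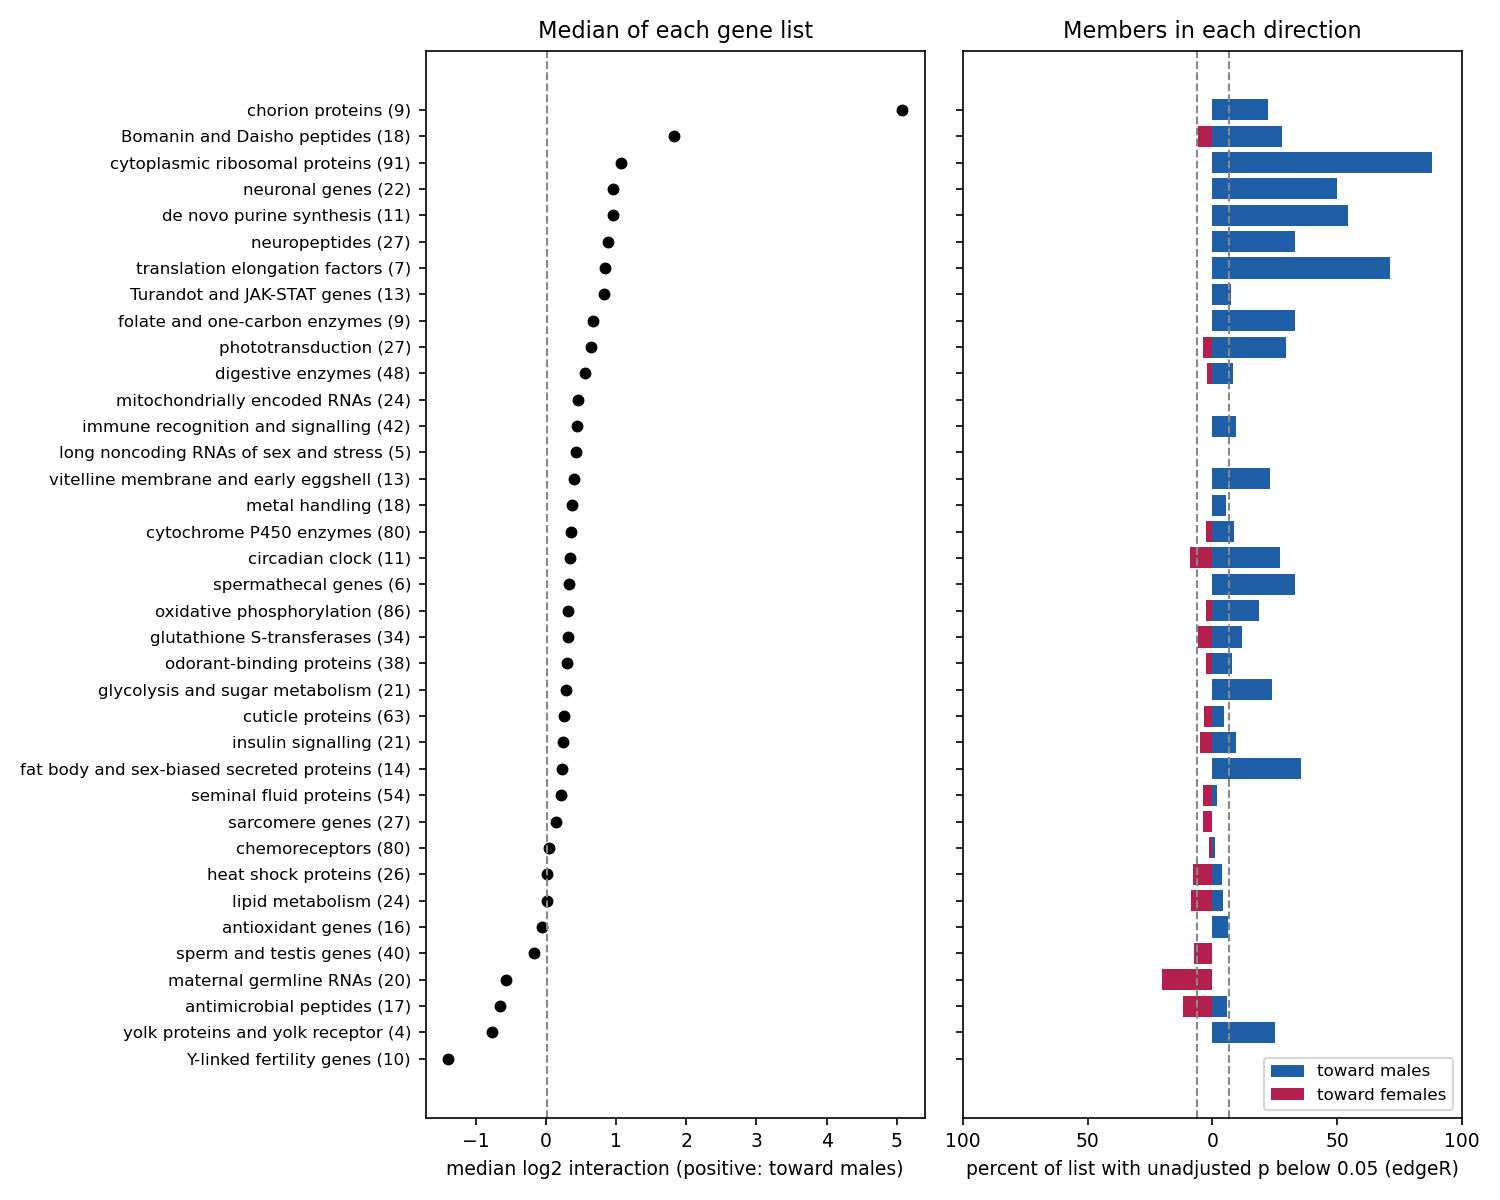
Left, median log2 interaction of the tested members of each gene list, with their number in brackets; the dashed line is the median of all 14112 genes. Right, percent of members with an unadjusted p below 0.05 toward males (blue, to the right) and toward females (red, to the left), with dashed lines at 6.80% and 6.23% for all genes; cytoplasmic ribosomal proteins reach 87.9% toward males and maternal germline RNAs 20% toward females.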

How the data were processed

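Poly(A) RNA of 12 pools of 10 flies was sequenced as paired reads of 150 bases. The deposited tables, 1 per age, hold the authors' raw read counts per NCBI gene. The aligner, counting tool, genome build and handling of shared reads are not given in the sources used here. The tables also hold FPKM and the authors' own fold changes and p-values, and 16 columns of other values were not used. Short FPKM tables were left out. The count tables were joined on the gene number, and 14755 of 14760 numbers were matched to RefSeq symbols.

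Counts were fitted with edgeR 4.0.16 in R 4.3.3 as 4 groups, with TMM factors, filterByExpr and the quasi-likelihood F test of the interaction, and p-values were adjusted by Benjamini-Hochberg over all genes tested. The SE is the fitted log2 value divided by the square root of F. Alternatives used DESeq2 1.42.0, limma 3.58.1 (voom), other scalings and filters, a replicate block, and fits without single libraries. The edgeR, limma-voom and DESeq2 tests in their standard settings were also run on simulated counts, and the other alternatives were not. In the simulated counts a gene had the same setting for its spread in all groups, so unequal spread between groups was not covered. Figures were drawn with matplotlib 3.10.9. As a library pools 10 flies, p-values measure the spread between such pools. The paper states that the RNA of each condition came from independent experiments, so this spread includes differences between experiments.

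Named genes were the 12 largest per direction among called genes measured in all groups and kept without each library, up to 4 called members of each list or else the 2 with the lowest p, the label checks, and immune genes taken from the study's account (Drs, Mtk, Rel, Drsl3, Drsl4, AttD and CecB). The first of these rules gave GstS1 alone. All genes named outside these rules, the 73-gene set and the purine, folate and elongation factor lists were chosen after their values were seen. Members and lists were chosen with earlier results of these data known.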

Additional observations from a re-analysis of the deposited data

Results flagged for a closer look

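For 2 genes the sex difference at 30 days was distinct from that at 10 days by the test of the difference itself, at an adjusted p below 0.05 in edgeR. For CG15570 the interaction was 9.71 on the log2 scale (adjusted p = 0.0119, edgeR), with females above males in all 3 young libraries per sex and below them in all 3 old ones. For GstS1 it was -1.48 (adjusted p = 0.0161, edgeR), with males above females at both ages and by less at 30 days.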

How the results depend on the processing

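By edgeR, genes called toward males numbered 2 with upper quartile factors, with robust quasi-likelihood and without both libraries holding egg genes, 6 with the filter on all groups, and 0 to 78 without single libraries. Toward females they numbered 0 with the scaling to photoreceptor, neuron and muscle genes, 4 without both egg-gene libraries, 9 with the filter on all groups, and 0 to 31 without single libraries. DESeq2 called 282 and 259, with a log2 size above 1 221 and 143, limma-voom 55 and 28, with quality weights 90 and 74, and with the filter on all groups 106 and 84. The cause of these differences was not tested. Same-numbered libraries did not deviate together (18 pairs, r from -0.35 to 0.08, none above 0.1), so the numbers were not taken as pairing. The replicate block gave 0 calls in both directions with 1541 genes at an unadjusted p below 0.05, and with a replicate block within age 0 with 1134; with these blocks Drsl4 was 0.17 (block), Drsl3 -2.13 and -1.66, and Mtk 1.35 (within age). The genes that turned direction had none of them passed the threshold: Drsl4 with quality weights (0.37) and from -1.25 to 1.25 without single libraries, Drsl3 with limma-voom (-0.72), without the egg-gene libraries (-1.24) and from -5.40 to 1.77 without single libraries, Mtk with limma-voom (1.06) and from -1.80 to 2.44, ras with upper quartile factors (0.035) and from -0.16 to 0.10, Prat without the egg-gene libraries (0.090), and eEF1alpha2 from -0.45 to 0.080 without single libraries. Depth was 23095913 to 62923162 counts, and genes with groups at 0 have fitted values that depend on how zeros are handled. The libraries 10-day male replicate 3 and 30-day male replicate 2 were left out after their egg-gene counts were known. List medians without 30-day male replicate 2, the 3 later lists, the DESeq2 size limit and limma-voom with the filter on all groups were chosen after seeing the data.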
